A study of Homo sapiens with 4 samples.

Results

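The transcriptome of A549 cells grown on Matrigel (3D) was compared with that of the same cells grown on plastic (2D), both in normoxia. The comparison rests on 2 of the 4 libraries of the series, 1 per culture. It covered the 12577 of 26255 gene symbols whose mean over the 4 libraries was at least 1 FPKM, with small RNA genes left out. FPKM counts fragments relative to transcript length and library depth. A549 is an established human lung adenocarcinoma line, labelled WT. Before the experiment it was kept in DMEM with 10% serum, and all 4 cultures then spent 5 days in DMEM with 5% serum. The 3D normoxia cells sat on solidified Matrigel and the 2D normoxia cells on a usual culture dish. The remaining pair, 3D hypoxia and 2D hypoxia, was kept at 1% oxygen and shares no library with the normoxia pair. The model is 1 line, and the labels do not say whether the 4 cultures came from separate experiments or how many dishes went into a library.

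Matrigel is a basement membrane extract from a mouse tumour, rich in laminin, type IV collagen, nidogen and heparan sulphate proteoglycan. Cells on a stiff plastic surface spread, build stress fibres and large focal adhesions, and keep the coactivators YAP and TAZ in the nucleus. On a soft basement membrane gel many epithelial lines form rounded clusters, with less actin tension. A549 cells carry an inactive KEAP1, so the transcription factor NRF2, which drives antioxidant and detoxifying genes, is active in them in ordinary culture.

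With 1 library per culture, the difference between the normoxic pair has no replicate check and no test. It is described as a log2 ratio of FPKM + 1, 3D over 2D, which understates the differences of low genes. A counting error, the sampling error of the fragments inferred for a gene, is given with some ratios and covers sequencing noise only. Its median over 12304 genes of known length was 0.10 on the log2 scale. The average effect of Matrigel over the normoxic and the hypoxic pair was tested with limma, with culture and oxygen as additive terms and 1 residual degree of freedom. In what follows, "rose" and "fell" are used only for genes that passed that test at an adjusted p of 0.05. For other genes the levels are given. The average includes the normoxic pair, so a call is no independent support for a gene or list described by its normoxic ratio. With 1 library per group, the residual holds noise together with any difference of the culture effect between the pairs. Limma draws it toward the variance of other genes, with a weight of 6.69 prior degrees of freedom. The p-values measure that spread over these 4 libraries, which may be technical, and not variation between replicate cultures.

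In units of 1000000 fragments, the inferred depth was 11.7 in 3D normoxia, 23.7 in 2D normoxia, 11.3 in 3D hypoxia and 38.5 in 2D hypoxia. A 2 kb transcript at 1 FPKM thus rested on 23.4 fragments in 3D normoxia and 47.5 in 2D normoxia. The 3D libraries were the shallower ones at both oxygen levels and had the larger FPKM sums, 543547 against 473503 in normoxia. Rescaling every library to the same sum moved the median ratio of all genes from -0.03 to -0.22. The part of depth and scaling in the results was not tested.

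The libraries carried carcinoma keratins and almost no markers of other cell types. KRT8 stood at 2854 against 3126 FPKM and KRT18 at 2717 against 3275 FPKM (3D against 2D normoxia). E-cadherin, CDH1, was at 24.6 against 37.3 FPKM. The epithelial adhesion gene EPCAM was low at 2.08 against 2.69 FPKM, as was the epithelial marker CLDN4 at 0.898 against 1.23 FPKM. NKX2-1, the lineage factor of distal lung epithelium, was near 0 (0.0388 against 0.0571 FPKM). Of 8 fibroblast markers only COL1A1 passed the filter, at 0.856 against 2.32 FPKM, and DCN was listed at 0 in both normoxic libraries. The fibroblast markers summed to 1.02 FPKM in 3D and 3.09 in 2D normoxia. The 6 endothelial markers summed to 0.335 and 0.564 FPKM, with none past the filter. Of 7 blood cell markers, 2 passed the filter, CD14 and ITGAM. CD14, which epithelial cells can also express, was at 11.4 against 10.7 FPKM, and ITGAM at 0.945 against 0.587 FPKM. PTPRC, CD3E and HBA1 were listed at 0 in both normoxic libraries, and HBB was at 0.273 FPKM in 2D normoxia.

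Among 12577 genes, 236 (1.88%) stood higher on Matrigel by 2-fold or more and 281 (2.23%) lower, together 517 (4.11%). After rescaling to a common sum, higher genes made up 21.2% of those past 2-fold, against 45.6% without it. A 4-fold difference or more was seen in 26 higher and 14 lower genes. A length was known for 504 of the 517, and in 260 of these the ratio was still past 2-fold after 1.96 counting errors were taken off its size. Over the 4 libraries, limma called 1713 genes (13.6%) higher on Matrigel and 1878 (14.9%) lower. The higher share of these calls, 47.7%, became 20.7% after rescaling to a common sum. In the normoxic pair, 6662 of the 12577 genes had a ratio below 0 and 5913 a ratio above 0. These counts and percentages are the background for the gene groups below, whose medians are over all listed members. The lists and the rule of size were chosen with earlier results of these data known. Members named beyond that rule, such as CTGF or PCNA, were chosen after their values were seen.

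**Figure D1:**
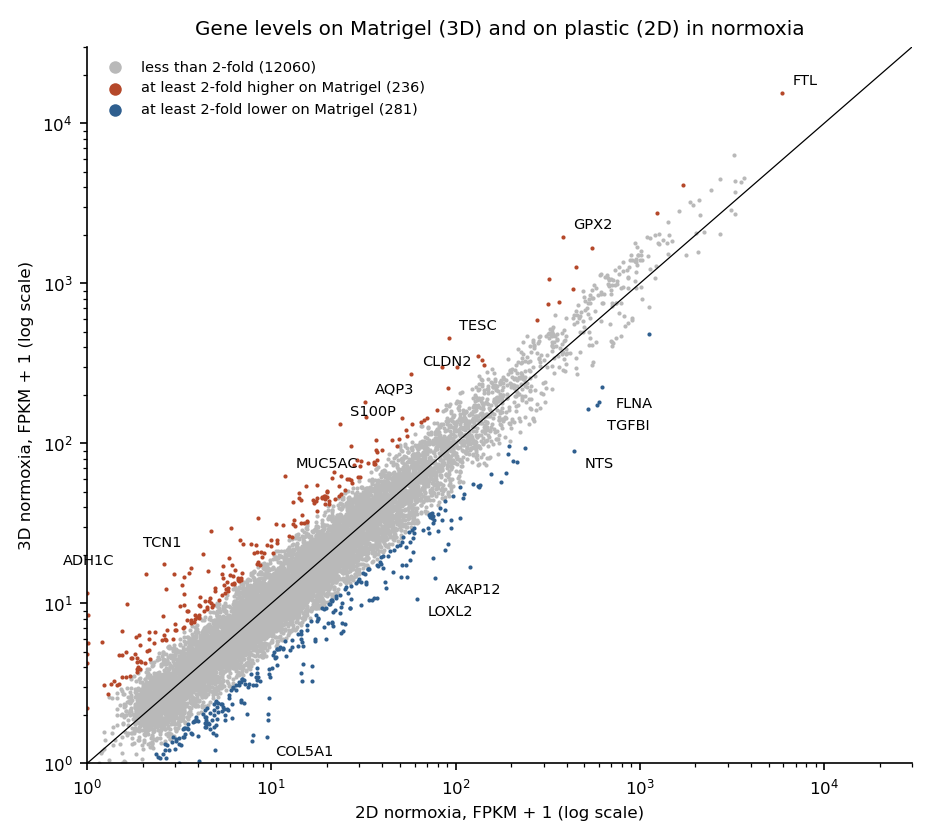
Each point is 1 of the 12577 genes, with its FPKM + 1 on plastic (x axis) and on Matrigel (y axis) in normoxia, both on log scales; the line marks equal levels, red points are the 236 genes higher by 2-fold or more and blue points the 281 lower by that much. Most genes lie near the line, FTL is the most abundant in both libraries, and AKAP12 and LOXL2 stand far below the line.

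Named by a rule of size, the 15 genes that stood highest on Matrigel in normoxia were ADH1C, TCN1, CES1, FCGBP, S100P, AQP3, MUC5AC, PRSS3, GPX2, TESC, TSPAN7, TSPAN8, CLDN2, ADH6 and the pseudogene ZDHHC8P1. In the hypoxic pair, whose libraries the choice of these 15 used only in the filter on low values, all 15 were above 0 and 14 of them at least 2-fold higher. Over all 12577 genes, 47.1% were above 0 in that pair and 3.73% at least 2-fold higher. ADH1C, which oxidises ethanol and retinol, was at 14.3 FPKM in 3D normoxia, 1.09 in 2D normoxia, 0.671 in 3D hypoxia and 0.0151 in 2D hypoxia. It was higher on Matrigel in each pair, but its level in 3D normoxia stood apart from the other 3. Both hypoxic levels of ADH1C were below 1 FPKM. In 2D hypoxia its level was below that of 1 fragment on a 1 kb transcript (0.026 FPKM), so its hypoxic ratio lies near the floor. Its paralogs ADH1A and ADH1B share much of its sequence and were at or near 0. TESC, a calcium-binding regulator of a sodium-proton exchanger, was at 453 FPKM in 3D normoxia, 90.8 in 2D normoxia, 412 in 3D hypoxia and 79.9 in 2D hypoxia, a ratio of 2.30 with a counting error of 0.04. The levels of TESC hardly depended on oxygen, and its ratio in hypoxia was 2.35. The tetraspanins TSPAN7 and TSPAN8, membrane organisers, had ratios of 2.29 and 2.27 in normoxia and 2.42 and 2.34 in hypoxia. PRSS3, a trypsinogen whose reads can be shared with close paralogs, had a ratio of 2.36.

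Among the lowest were COL5A1, LOXL2, IL11, AKAP12, ABCB1, PADI2, COL12A1, NTS, FBN2, TAGLN, FZD8, FGB, LAMA3 and PTPRF. Of the 15 lowest, all 15 were below 0 in the hypoxic pair, 13 of them by 2-fold or more. Over all genes, 52.9% were below 0 in that pair and 2.74% lower by 2-fold or more. NTS, the neurotensin peptide precursor, was at 88.4 FPKM in 3D normoxia, 439 in 2D normoxia, 42.9 in 3D hypoxia and 228 in 2D hypoxia, with ratios of -2.30 in normoxia and -2.38 in hypoxia. The 2D libraries held several times the NTS level of the 3D libraries at either oxygen level. FBN2, a microfibril protein, stood at 1.02 against 8.55 FPKM, FZD8, a Wnt receptor, at 3.08 against 15.7 FPKM, and PTPRF, a receptor phosphatase, at 18.3 against 74.3 FPKM. AKAP12, a scaffold for protein kinase A, was at 13.5 against 75.9 FPKM and the drug efflux pump ABCB1 at 0.509 against 6.97 FPKM.

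**Figure D2:**
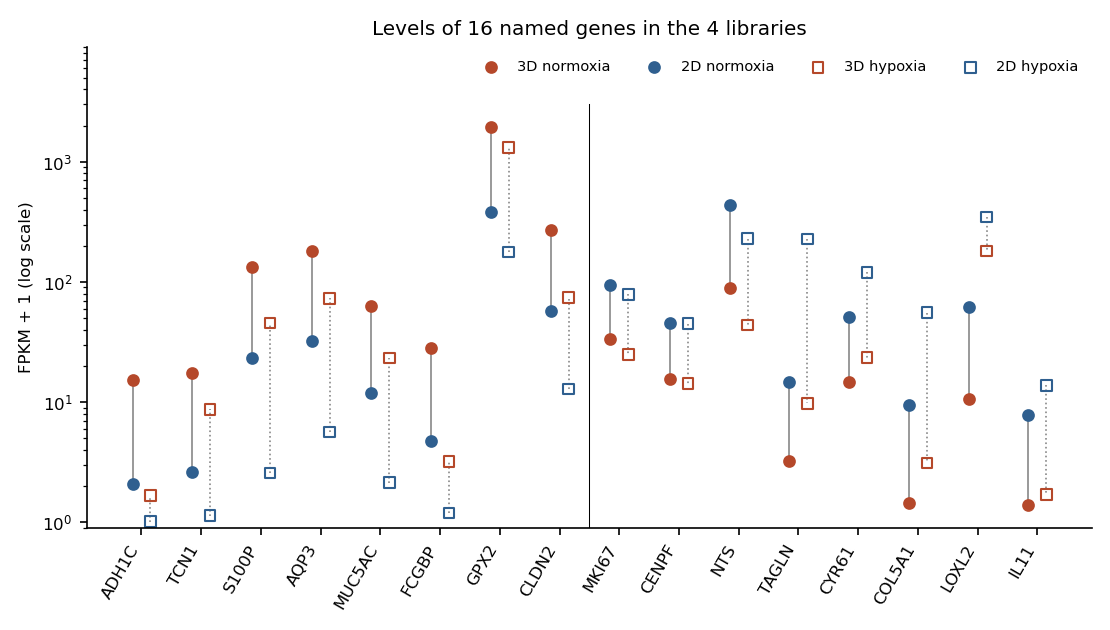
Levels of 16 named genes as FPKM + 1 on a log scale (y axis) in the 4 libraries; filled circles are the normoxic libraries joined by a solid line, open squares the hypoxic ones joined by a dotted line, red is 3D and blue 2D, and the vertical line separates genes higher from genes lower on Matrigel. In each gene the red symbol lies on the same side of the blue one at both oxygen levels, and in LOXL2 both hypoxic levels lie above both normoxic ones.

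Genes of cell division were lower on Matrigel as a group. Of 30 genes of mitosis and the spindle, all 30 had a ratio below 0, 8 were at least 2-fold lower, and the median was -0.79. Limma called 27 of the 30 lower. The exceptions were CENPA, the centromeric histone, BIRC5, survivin, and CDK1, the mitotic kinase. TOP2A, the topoisomerase that untangles sister chromatids, was at 54.3 FPKM in 3D normoxia, 135 in 2D normoxia, 39.9 in 3D hypoxia and 112 in 2D hypoxia. TPX2, a spindle assembly factor, was at 30.9 FPKM in 3D normoxia, 74.7 in 2D normoxia, 22.8 in 3D hypoxia and 66.5 in 2D hypoxia. TOP2A and TPX2 were named for the size of their normoxic ratio, and in each pair the 3D library was the lower one. CDK1 itself differed little in normoxia (49.6 against 54.8 FPKM, ratio -0.14) and more in hypoxia (32.9 against 48.8 FPKM). The proliferation marker MKI67 fell, with an average effect of -1.58 ± 0.12 (SE) (limma adjusted p 0.000641). In bulk RNA, fewer dividing cells and less RNA per dividing cell cannot be told apart.

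Genes of DNA replication were mostly lower on Matrigel too. Of 32 genes, 30 were below 0, 3 at least 2-fold lower, and the median was -0.66. Limma called 26 of them lower. MCM10, which helps activate the replicative helicase, was at 5.83 FPKM in 3D normoxia, 14.5 in 2D normoxia, 3.31 in 3D hypoxia and 10 in 2D hypoxia. The 6 helicase subunits MCM2 to MCM7 fell, with ratios of -0.98, -0.91, -0.94, -0.86, -0.71 and -0.997 in the order of their names. POLE, the leading-strand polymerase, stood at 10.3 against 22.6 FPKM. Thymidylate synthase, TYMS, and the ribonucleotide reductase subunit RRM2 had ratios of only -0.19 and -0.21. PCNA, the sliding clamp, was at 234 against 226 FPKM in normoxia (ratio 0.05) and at 121 against 159 FPKM in hypoxia.

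Promoters of mitotic genes often carry a cell cycle homology element (CHR), read by the DREAM complex, and CCAAT boxes, bound by NF-Y. Replication genes often carry E2F sites. The CHR letters are TTTGAA, with TTCGAA as the accepted variant. On either strand they were found in 18 of the 25 mitotic genes with a promoter in the RefSeq table (GRCh38.p14), or 72.0%, against 13.5% of 15843 protein-coding promoters. Each window held 300 bases, from 250 before the annotated start to 50 after it. CCAAT was found in 21 of the 25 (84.0%) against 36.4%. The E2F letters searched on both strands were TTCGCGC, the related run TTGGCGC and the related run TTCCCGC, and they were found in 22 of 28 replication genes (78.6%) against 14.8%. A match is a match of letters, not an observed binding site. Genes that limma did not call held the letters too. CHR letters began at -18 in CENPA (ratio -0.21) and at -161 in CDK1 (ratio -0.14), and E2F letters at -59 in PCNA (ratio 0.05). The shares describe lists of known mitosis and replication genes and not the difference between cultures. Whether the letters go with the ratios was not tested. Below are the 150 bases before the start of 4 mitotic genes, with the CHR letters in capitals. The 4 were picked because the letters sit at a like distance from the start in them. In other listed genes the letters began farther away, as at -113 in ASPM. CCNB2 (cyclin B2), PLK1 (a mitotic kinase) and PRC1 (a spindle midzone protein) were chosen for display after their values were seen.
MKI67: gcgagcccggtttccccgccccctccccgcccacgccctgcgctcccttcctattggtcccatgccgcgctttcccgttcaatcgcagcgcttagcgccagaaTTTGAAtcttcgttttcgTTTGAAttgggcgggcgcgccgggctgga
CCNB2: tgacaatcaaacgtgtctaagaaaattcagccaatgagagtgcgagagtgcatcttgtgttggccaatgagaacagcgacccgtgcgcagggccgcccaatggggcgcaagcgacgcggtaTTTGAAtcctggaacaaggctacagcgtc
PLK1: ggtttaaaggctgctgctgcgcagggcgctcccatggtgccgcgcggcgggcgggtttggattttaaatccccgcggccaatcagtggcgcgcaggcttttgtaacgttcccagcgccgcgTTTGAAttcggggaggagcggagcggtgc
PRC1: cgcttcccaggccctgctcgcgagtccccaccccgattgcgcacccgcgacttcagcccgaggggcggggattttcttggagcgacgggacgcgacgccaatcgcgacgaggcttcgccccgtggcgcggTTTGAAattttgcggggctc

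These lie at chr10:128126424-128126573 (minus strand), chr15:59104996-59105145 (plus), chr16:23678739-23678888 (plus) and chr15:90994536-90994685 (minus). Counted from the annotated start, the CHR letters began at -47 and -29 in MKI67, at -29 in CCNB2 and PLK1, and at -20 in PRC1. The second match in MKI67 shares its last base with a CCAAT match on the opposite strand. The normoxic ratios of CCNB2, PLK1 and PRC1 were -0.65, -0.84 and -0.89. For the replication genes, the 150 bases before the start of UHRF1, which keeps DNA methylation through replication, and of MCM7 are shown with E2F letters of either strand in capitals.
UHRF1: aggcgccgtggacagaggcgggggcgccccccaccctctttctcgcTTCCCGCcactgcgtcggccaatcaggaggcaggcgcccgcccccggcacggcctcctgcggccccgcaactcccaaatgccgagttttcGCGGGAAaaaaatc
MCM7: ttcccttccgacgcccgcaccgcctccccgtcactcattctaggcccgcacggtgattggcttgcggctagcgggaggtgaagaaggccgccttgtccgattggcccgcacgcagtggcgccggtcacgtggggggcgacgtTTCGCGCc

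UHRF1 lies at chr19:4909351-4909500 (plus strand) and MCM7 at chr7:100101398-100101547 (minus). Their E2F letters began at -104 and -14 in UHRF1 and, in an overlapping pair on opposite strands, at -8 and -5 in MCM7, where the latter runs past the end of the stretch shown. UHRF1 stood at 12.5 FPKM in 3D normoxia, 29.7 in 2D normoxia, 9.09 in 3D hypoxia and 32.6 in 2D hypoxia, and MCM7 at 71.9 FPKM in 3D normoxia, 144 in 2D normoxia, 50.4 in 3D hypoxia and 99.7 in 2D hypoxia. Both genes were lower in the 3D library of each pair.

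Cells on Matrigel had lower levels of many genes that make and crosslink the matrix. Of 26 collagen chains, 16 passed the filter on low values and 6 were at least 2-fold lower, and the median over all 26 was -0.14. Limma called 8 lower and 1, COL16A1, higher. The basement membrane chains COL4A1 and COL4A2 fell. COL4A2 was at 12.7 FPKM in 3D normoxia, 31.5 in 2D normoxia, 20.3 in 3D hypoxia and 113 in 2D hypoxia. The hypoxic dish held the most of both, and the pair ratios of COL4A1 were -1.49 in normoxia and -3.19 in hypoxia. COL18A1, the most abundant collagen chain here, differed little in normoxia, at 77.7 against 94.6 FPKM.

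Among 19 laminins and other basement membrane genes, 4 of the 13 that passed the filter were at least 2-fold lower, the median over all 19 was -0.68, and limma called 9 lower. The chains LAMA3 and LAMB3 went opposite ways. LAMA3 fell, at 2.68 against 13.5 FPKM in normoxia, while LAMB3 rose, at 12.2 against 8.87 FPKM. NTN4, a netrin found in basement membranes, was at 19.8 FPKM in 3D normoxia, 57.7 in 2D normoxia, 27.2 in 3D hypoxia and 57 in 2D hypoxia. FBLN1, fibulin 1, stood at 25 against 51.1 FPKM. The chains of laminin-511, LAMA5, LAMB1 and LAMC1, had ratios of -0.85, -0.79 and -0.95.

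Enzymes that modify and crosslink collagen had a median of -0.69 over 18 members, with 5 at least 2-fold lower and 6 called lower by limma. In the hypoxic pair the median of the list was -0.17. LOXL2, a lysyl oxidase that crosslinks collagen and that hypoxia induces, was at 9.64 FPKM in 3D normoxia, 60.6 in 2D normoxia, 179 in 3D hypoxia and 347 in 2D hypoxia. Its normoxic Matrigel level was far below the other 3. SERPINH1, the collagen chaperone HSP47, was at 55.1 against 123 FPKM. P4HA2, a collagen prolyl hydroxylase, stood at 16.2 against 37 FPKM in normoxia and 56.4 against 62.7 FPKM in hypoxia and was not called (limma adjusted p 0.058). P4HA3 fell, with 5.46 against 13.4 FPKM. TGM2, a transglutaminase, rose and stood at 119.9 against 100.1 FPKM.

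Among genes of pericellular proteolysis, 5 of 25 members were at least 2-fold lower with a median of -0.55, and limma called 10 lower. PLAU, the urokinase activator of plasminogen, was at 13.6 FPKM in 3D normoxia, 53.2 in 2D normoxia, 29.9 in 3D hypoxia and 49 in 2D hypoxia. The levels were lowest in 3D normoxia. MMP24, a membrane-bound metalloproteinase, stood at 8.88 against 19.4 FPKM, and its relative MMP15 at 5.73 against 13.4 FPKM in normoxia and 8.0 against 8.22 FPKM in hypoxia (limma adjusted p 0.0977). MMP7, the most abundant metalloproteinase of the list, differed little at 93.6 against 105 FPKM. The inhibitor TIMP1 rose, at 235 against 173 FPKM, while TIMP2 was at 23.9 against 40.1 FPKM. Transcripts of many of these matrix genes are long, and over all genes the median ratio was lower among long transcripts, as given near the end.

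Receptors for the matrix went past 2-fold about as seldom as all genes did (4.11%). Of 23 integrins and adhesion receptors, 1, ITGA10, was at least 2-fold higher, 0 were 2-fold lower, and the median was -0.20. Limma called 3 higher and 3 lower, near the shares over all genes (13.6% and 14.9%). ITGA10, a collagen-binding chain, was at 4.87 FPKM in 3D normoxia, 1.68 in 2D normoxia, 0.993 in 3D hypoxia and 0.443 in 2D hypoxia. ITGA3, the laminin-binding chain, stood at 103 against 196 FPKM, and ITGA6, a laminin-binding chain too, at 25.4 against 29.6 FPKM. ITGA5, the fibronectin-binding chain, was at 12.3 against 24.4 FPKM in normoxia but at 42.2 against 32.7 FPKM in hypoxia, and was not called (limma adjusted p 0.437). The syndecan SDC4, a co-receptor in focal adhesions, fell and was at 9.53 against 18.2 FPKM.

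Genes of the actin cytoskeleton and focal adhesions were lower on Matrigel, in part. Of 28 members, 26 were below 0 and 7 at least 2-fold lower, with a median of -0.33, and limma called 13 lower. TAGLN, the actin-bundling transgelin, was at 2.26 FPKM in 3D normoxia, 13.7 in 2D normoxia, 8.75 in 3D hypoxia and 227 in 2D hypoxia. Its hypoxic dish level exceeded the other 3 many times over. FLNA, a filamin that crosslinks actin to membrane receptors, was at 181 FPKM in 3D normoxia, 603 in 2D normoxia, 499.6 in 3D hypoxia and 1029 in 2D hypoxia, and VCL, vinculin, which couples integrins to actin, at 33 FPKM in 3D normoxia, 104 in 2D normoxia, 69.9 in 3D hypoxia and 181 in 2D hypoxia. For FLNA and VCL the 3D library was the lower one within each pair. MYH9, the heavy chain of non-muscle myosin, had a ratio of -1.40 and an average effect of -1.43 ± 0.13 (SE) (limma adjusted p 0.00106). The actins themselves differed less, with ACTB at 2036 against 2716 FPKM and ACTG1 at 1500.5 against 1776 FPKM.

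Target genes of YAP and TAZ had a median of -0.57 in normoxia and -0.85 in hypoxia over 22 members. In normoxia 8 were at least 2-fold lower, and limma called 14 lower and 2 higher. CYR61, a secreted matricellular protein, was at 13.7 FPKM in 3D normoxia, 49.6 in 2D normoxia, 22.5 in 3D hypoxia and 119 in 2D hypoxia. AXL, a receptor tyrosine kinase, was at 8.83 FPKM in 3D normoxia, 29.7 in 2D normoxia, 42.4 in 3D hypoxia and 82.3 in 2D hypoxia, and TGFB2, a growth factor, at 6.54 FPKM in 3D normoxia, 20.3 in 2D normoxia, 10.5 in 3D hypoxia and 36.8 in 2D hypoxia. In these genes the 3D library was below the 2D library of its pair. MYOF, myoferlin, which repairs membranes, stood at 52.7 against 132 FPKM. CTGF, often read beside CYR61 as a YAP target, did not differ in normoxia by size, at 26.6 against 27.4 FPKM (ratio -0.04), and stood at 23.4 against 46.1 FPKM in hypoxia. The 2 members that rose were IGFBP3, which binds insulin-like growth factors, at 263 against 132 FPKM, and NT5E, an ecto-nucleotidase, at 21.7 against 15.6 FPKM.

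YAP and TAZ act through TEAD factors. The TEAD letters GGAATG, on either strand, were found in 7 of the 16 list members with a promoter in the RefSeq table (43.8%), against 11.7% of the 15843 promoters. The 150 bases before the start of ANKRD1, NUAK2 and CTGF are shown, since the letters occur in all 3 while the ratios differed; capitals mark them. All 3 were chosen after their values were seen.
ANKRD1: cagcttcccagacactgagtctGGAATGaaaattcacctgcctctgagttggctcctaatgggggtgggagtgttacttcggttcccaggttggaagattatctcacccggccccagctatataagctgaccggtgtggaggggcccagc
NUAK2: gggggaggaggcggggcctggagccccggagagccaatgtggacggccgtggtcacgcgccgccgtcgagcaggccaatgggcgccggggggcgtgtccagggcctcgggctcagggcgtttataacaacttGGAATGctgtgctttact
CTGF: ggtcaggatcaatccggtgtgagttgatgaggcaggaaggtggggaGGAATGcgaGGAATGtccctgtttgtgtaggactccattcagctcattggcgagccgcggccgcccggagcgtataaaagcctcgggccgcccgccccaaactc

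They lie at chr10:90921088-90921237, chr1:205321746-205321895 and chr6:131951373-131951522, all on the minus strand. ANKRD1, a muscle ankyrin repeat protein, stood at 2.6 against 6.73 FPKM (ratio -1.10) and NUAK2, a kinase, at 12.4 against 27.9 FPKM (ratio -1.11), against -0.04 for CTGF.

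The MAPK feedback and immediate-early genes split. Of 24 members, 2 were at least 2-fold higher and 3 lower, the median was -0.09, and limma called 5 higher and 6 lower. ETV4, an ETS factor downstream of ERK, was at 77.6 FPKM in 3D normoxia, 28.1 in 2D normoxia, 46.5 in 3D hypoxia and 9.92 in 2D hypoxia. FOS and JUN, which pair as AP-1, went opposite ways. FOS rose and was at 7.98 FPKM in 3D normoxia, 2.49 in 2D normoxia, 21.1 in 3D hypoxia and 2.13 in 2D hypoxia. JUN fell and was at 3.17 FPKM in 3D normoxia, 13.8 in 2D normoxia, 22 in 3D hypoxia and 49.6 in 2D hypoxia. DUSP6, a phosphatase that ERK induces to limit itself, stood at 12.2 against 5.85 FPKM, and DUSP1, a stress-induced phosphatase, at 32.2 against 83.3 FPKM.

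Among epithelial junction and keratin genes, 3 of 24 were at least 2-fold higher and 2 lower, with a median of -0.25, and limma called 5 higher and 8 lower. CLDN2, a pore-forming claudin of leaky epithelia, was at 269 FPKM in 3D normoxia, 56.5 in 2D normoxia, 73 in 3D hypoxia and 11.8 in 2D hypoxia. TJP3, a tight junction scaffold, stood at 16.6 against 7.33 FPKM. The keratins divided. KRT19 rose, at 71.5 against 29.1 FPKM, while KRT80 fell, at 9.82 against 36.6 FPKM, as did KRT7, at 479.8 against 1122 FPKM. KRT18 had opposite order in the pairs, 2717 against 3275 FPKM in normoxia and 3719.8 against 1721 FPKM in hypoxia, as did its partner KRT8 (ratios -0.13 and 0.98), and neither was called (limma adjusted p 0.333 and 0.27). CLDN1, of tight junctions, was at 22.1 against 40.2 FPKM.

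Of 12 mesenchymal genes, 2 were at least 2-fold higher and 2 lower, and the median was -0.44, with 2 called higher and 4 lower by limma. TGFBI, an adhesive matrix protein induced by TGF-beta, was at 173 FPKM in 3D normoxia, 581 in 2D normoxia, 602 in 3D hypoxia and 1632 in 2D hypoxia. S100A4, a calcium-binding protein of motile cells, was at 2742 FPKM in 3D normoxia, 1232 in 2D normoxia, 2773 in 3D hypoxia and 1587 in 2D hypoxia. FN1, fibronectin, rose, with 333 against 139 FPKM, and THBS1, thrombospondin, fell, with 5.52 against 22.8 FPKM. Vimentin, VIM, had ratios of -0.62 in normoxia and 0.16 in hypoxia. The repressors ZEB1 and TWIST1 had ratios of -0.11 and -0.27.

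**Figure D3:**
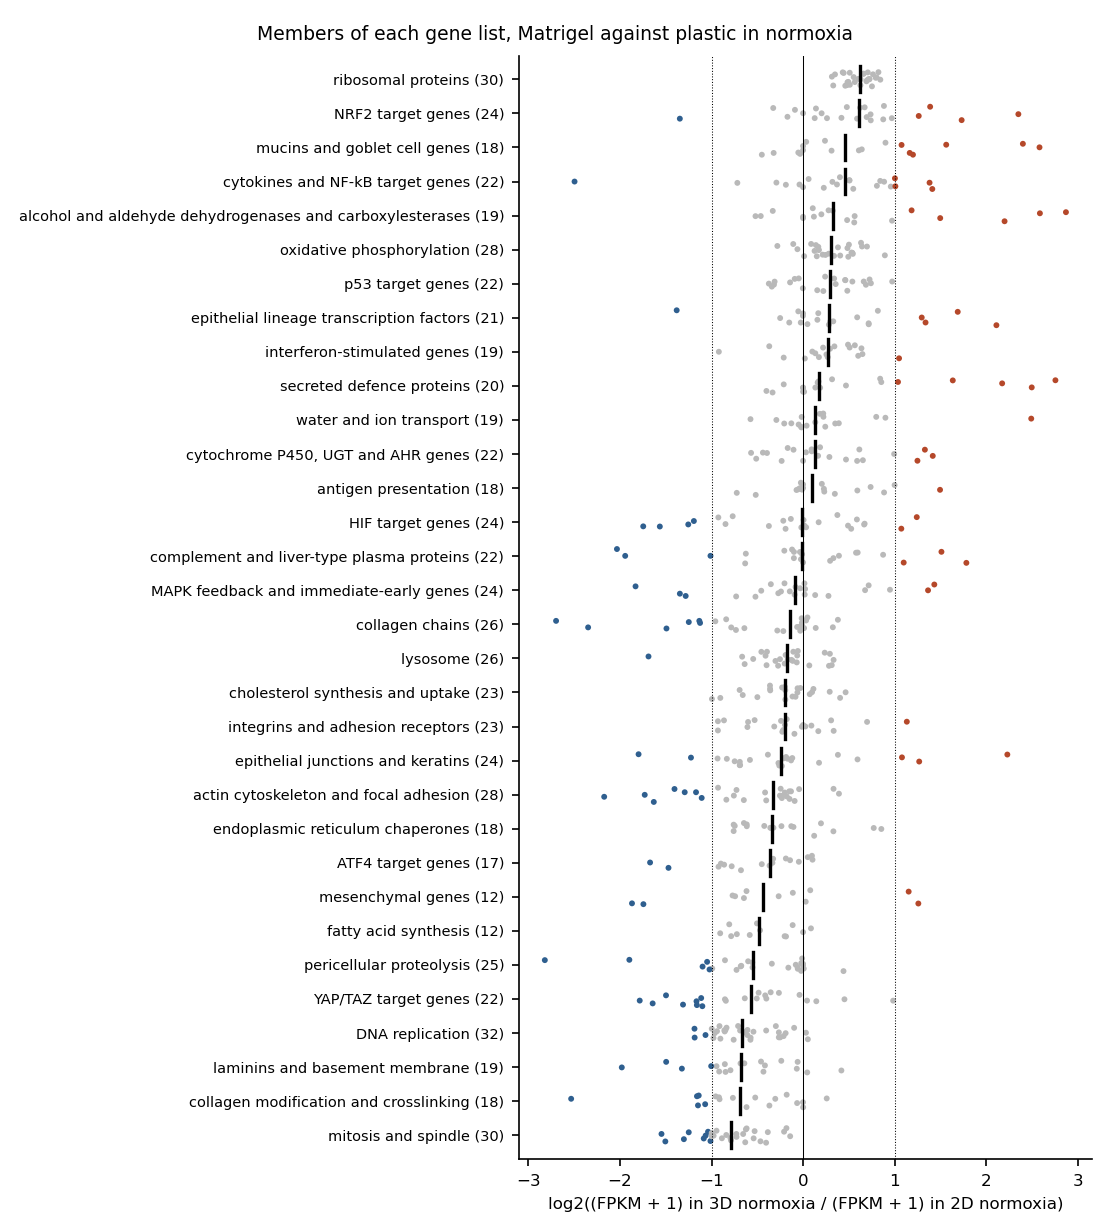
Each row is a gene list with the number of its members, each point a member's log2 ratio of FPKM + 1, 3D over 2D in normoxia (x axis), and each black bar the list's median; dotted lines mark 2-fold, red and blue points the members past it. Ribosomal protein and NRF2 target genes have the highest medians (0.63 and 0.61) and mitosis genes the lowest (-0.79), and many lists hold members on both sides of 0.

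Gel-forming mucins and several other goblet cell genes were higher on Matrigel. Of 18 members, 10 passed the filter, 6 were at least 2-fold higher, and the median over all 18 was 0.46, with 8 called higher by limma. MUC5AC, a gel-forming mucin of airway and stomach, was at 61.5 FPKM in 3D normoxia, 10.8 in 2D normoxia, 22.4 in 3D hypoxia and 1.14 in 2D hypoxia. MUC5B, the gel-forming mucin of airway glands, was at 301 FPKM in 3D normoxia, 101 in 2D normoxia, 168 in 3D hypoxia and 12.5 in 2D hypoxia. For each mucin both 3D levels were above the 2D level of the same oxygen, and normoxia held more than hypoxia. SPDEF, the transcription factor that directs goblet cell differentiation, was at 45 FPKM in 3D normoxia, 19 in 2D normoxia, 18.2 in 3D hypoxia and 2.04 in 2D hypoxia. AGR2, which folds mucins in the endoplasmic reticulum, stood at 918 against 435 FPKM. MUC2, the intestinal mucin, was near 0 (0.318 against 0.0624 FPKM), and MUC1, a membrane mucin, was at 5.16 against 5.3 FPKM. FCGBP, a protein of mucus, was at 27.3 FPKM in 3D normoxia, 3.72 in 2D normoxia, 2.21 in 3D hypoxia and 0.20 in 2D hypoxia, highest in 3D normoxia.

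In the list of secreted defence proteins, only 8 of 20 members passed the filter. 5 members were at least 2-fold higher, the median over all 20 was 0.18, and limma called 7 higher. CP, ceruloplasmin, a copper-carrying ferroxidase, was at 146 FPKM in 3D normoxia, 31.5 in 2D normoxia, 526 in 3D hypoxia and 42.5 in 2D hypoxia. LCN2, which withholds iron from bacteria, was at 54.2 FPKM in 3D normoxia, 16.8 in 2D normoxia, 39.2 in 3D hypoxia and 4.64 in 2D hypoxia. S100P, a calcium-binding protein, was at 131 FPKM in 3D normoxia, 22.4 in 2D normoxia, 44.5 in 3D hypoxia and 1.58 in 2D hypoxia, and TCN1, a vitamin B12 carrier of mucosal secretions, at 16.6 FPKM in 3D normoxia, 1.61 in 2D normoxia, 7.72 in 3D hypoxia and 0.138 in 2D hypoxia. In these genes each 3D library exceeded its own 2D library. The club cell secretoglobin SCGB1A1 was listed at 0 in both 3D libraries.

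Of the complement and liver-type plasma protein genes, 3 of 22 were at least 2-fold higher and 3 lower, and the median was -0.02, or 0.01 once ratios were centred on the median of all genes. Limma called 6 higher and 2 lower. The complement genes C3 and CFB rose. C3, on which all complement pathways converge, was at 59.5 FPKM in 3D normoxia, 20.2 in 2D normoxia, 139 in 3D hypoxia and 17.7 in 2D hypoxia. CFB, the protease of the alternative pathway, was at 10.5 FPKM in 3D normoxia, 2.34 in 2D normoxia, 22.4 in 3D hypoxia and 2.44 in 2D hypoxia. The fibrinogen chains were lower in normoxia. FGB was at 20.5 FPKM in 3D normoxia, 86.8 in 2D normoxia, 16.8 in 3D hypoxia and 37.5 in 2D hypoxia, FGG at 22.6 against 89.7 FPKM and FGA at 95.3 against 193 FPKM. FGB and FGG were called lower by limma, and FGA stood slightly higher on Matrigel in hypoxia, at 103 against 89.5 FPKM.

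Epithelial lineage transcription factors had a median of 0.28 over 21 members, or 0.11 after rescaling to a common sum. In normoxia 4 were at least 2-fold higher and 1 lower, and limma called 9 higher and 1 lower. EHF, an epithelial ETS factor, was at 13.6 FPKM in 3D normoxia, 2.37 in 2D normoxia, 3.79 in 3D hypoxia and 0.609 in 2D hypoxia. FOXQ1, a forkhead factor, was at 7.33 FPKM in 3D normoxia, 1.58 in 2D normoxia, 3.64 in 3D hypoxia and 1.15 in 2D hypoxia, and SOX9, a factor of progenitor epithelium, at 32.3 FPKM in 3D normoxia, 12.2 in 2D normoxia, 24.4 in 3D hypoxia and 11.3 in 2D hypoxia. In each of these 3, the 3D level was above the 2D level of the same oxygen. The member that fell was SOX2, a factor of proximal airway, at 1.36 against 5.15 FPKM. The hepatic-type factor HNF4A stood at 7.85 against 7.86 FPKM.

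Water and ion transport genes were mostly low, with 8 of 19 past the filter, 1 at least 2-fold higher and a median of 0.13, which became -0.02 after rescaling to a common sum. The share past 2-fold was near that over all genes (4.11%). Limma called 5 higher and 1 lower. AQP3, a channel for water and glycerol, was at 179.9 FPKM in 3D normoxia, 31.2 in 2D normoxia, 72 in 3D hypoxia and 4.65 in 2D hypoxia. SCNN1A, the alpha subunit of the epithelial sodium channel, stood at 5.78 against 2.9 FPKM, and SLC9A3R1, an apical scaffold, at 70 against 37.1 FPKM. FXYD2, a regulatory subunit of the sodium pump and named among the abundant genes, was at 1669 FPKM in 3D normoxia, 546 in 2D normoxia, 3127 in 3D hypoxia and 1151 in 2D hypoxia.

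Several enzymes that handle alcohols, aldehydes and drugs were higher on Matrigel. Of 19 alcohol and aldehyde dehydrogenases and carboxylesterases, 5 were at least 2-fold higher, the median was 0.32, and limma called 9 higher. ALDH3A1, an aldehyde dehydrogenase of epithelia, was at 1269 FPKM in 3D normoxia, 449 in 2D normoxia, 665 in 3D hypoxia and 104 in 2D hypoxia. CES1, a carboxylesterase, was at 8.89 FPKM in 3D normoxia, 0.647 in 2D normoxia, 5.02 in 3D hypoxia and 0.195 in 2D hypoxia, and ADH6 at 11.3 against 1.68 FPKM. The most abundant member, ALDH1A1, hardly differed by ratio (0.28), at 4277 against 3527 FPKM. Of 22 cytochrome P450, UGT and AHR pathway genes, 3 were at least 2-fold higher, the median was 0.13 (-0.0052 after rescaling to a common sum), and limma called 7 higher and 1 lower. CYP4F11, a fatty acid hydroxylase, was at 29.8 FPKM in 3D normoxia, 10.5 in 2D normoxia, 25.7 in 3D hypoxia and 6.84 in 2D hypoxia, and CYP3A5, a drug oxidase, at 19.9 FPKM in 3D normoxia, 7.79 in 2D normoxia, 23.6 in 3D hypoxia and 4.79 in 2D hypoxia. SULT1A1, a phenol sulphotransferase with close paralogs, stood at 11.5 against 3.97 FPKM, and GSTA4, a glutathione transferase, at 14.4 against 6.75 FPKM. CYP1B1, a target of the AHR, was at 25.8 against 38.7 FPKM.

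NRF2 target genes had a median of 0.61 over 24 members. In normoxia 4 were at least 2-fold higher and 1 lower, and limma called 14 higher and 2 lower. GPX2, a glutathione peroxidase of epithelia, was at 1948 FPKM in 3D normoxia, 381 in 2D normoxia, 1311 in 3D hypoxia and 176 in 2D hypoxia. AKR1C1, an aldo-keto reductase with near-identical paralogs, was at 1068 FPKM in 3D normoxia, 321 in 2D normoxia, 653 in 3D hypoxia and 143 in 2D hypoxia. GPX2 and AKR1C1 were both higher in the 3D library of each pair. FTL, the ferritin light chain, which has many pseudogenes, was at 15438 FPKM in 3D normoxia, 5900.1 in 2D normoxia, 11584 in 3D hypoxia and 6564 in 2D hypoxia, the top gene of the normoxic libraries. NQO1, a quinone reductase, stood at 1121 against 611 FPKM. HMOX1, haem oxygenase, went the other way and fell, at 92.2 FPKM in 3D normoxia, 236 in 2D normoxia, 78.3 in 3D hypoxia and 246 in 2D hypoxia. TXNRD1, a thioredoxin reductase, stood at 414 against 379 FPKM and the exporter ABCC3 at 211 against 211 FPKM.

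Ribosomal protein genes were uniformly somewhat higher in normoxia on Matrigel. All 30 of 30 were above 0, from 0.31 to 0.84 with a median of 0.63, 0 reached 2-fold, and limma called 17 higher. RPLP0 was at 1962 FPKM in 3D normoxia, 1093 in 2D normoxia, 2622 in 3D hypoxia and 1884 in 2D hypoxia. Within each pair the 3D library was the higher one. Transcripts of ribosomal protein genes are short and have many pseudogenes. Less the median of genes of like transcript length, an adjustment chosen after seeing the data, their median was 0.55. Of 28 oxidative phosphorylation genes, 0 were at least 2-fold higher or lower, and limma called 7 higher. The median was 0.31 in normoxia (0.11 after rescaling to a common sum) and 0.08 in hypoxia. NDUFV2, a complex I subunit, was at 163 FPKM in 3D normoxia, 87.4 in 2D normoxia, 128 in 3D hypoxia and 61.9 in 2D hypoxia. Its ratio was the highest of the list, and those of NDUFB5, SDHD and SDHC followed at 0.70, 0.64 and 0.63.

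Lipid synthesis genes had medians below 0 in normoxia and above 0 in hypoxia. None of 23 cholesterol genes reached 2-fold, and the median was -0.19 in normoxia and 0.28 in hypoxia. Limma called 1 lower and 1 higher. DHCR7, the last enzyme of the pathway, was at 84.6 FPKM in 3D normoxia, 169.7 in 2D normoxia, 95.9 in 3D hypoxia and 99.2 in 2D hypoxia. The normoxic dish was the high library, and the other 3 were close together. SQLE, squalene epoxidase, was at 65.9 against 105 FPKM. Of 12 fatty acid synthesis genes none reached 2-fold, the median was -0.49 in normoxia and 0.16 in hypoxia, and limma called 2 lower, ACLY and ACACA. FASN, the fatty acid synthase, was at 80.5 FPKM in 3D normoxia, 152 in 2D normoxia, 99.7 in 3D hypoxia and 90.7 in 2D hypoxia, and FADS2, a desaturase, at 405 FPKM in 3D normoxia, 708 in 2D normoxia, 465 in 3D hypoxia and 418 in 2D hypoxia. For both, the normoxic dish held the most. The difference between the pairs was not tested.

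Target genes of the hypoxia-inducible factors had a median of -0.01 in the normoxic pair, or 0.02 once ratios were centred, with 2 of 24 at least 2-fold higher and 4 lower, and limma called 8 higher and 6 lower. SLC2A3, a glucose transporter, was at 6.46 against 24 FPKM in normoxia. ADM, the vasodilator adrenomedullin, was at 16.3 against 50.2 FPKM, and STC2, stanniocalcin 2, at 2.46 against 7.24 FPKM. In the hypoxic pair the ratios of SLC2A3, ADM and STC2 were only -0.23, -0.18 and -0.29, and the median of the list was 0.60. The difference between the pairs was not tested. EGLN3, an oxygen-dependent enzyme that tags HIF subunits for destruction, rose, at 9.28 against 3.35 FPKM. CA9, the carbonic anhydrase often read as a hypoxia marker, was at 4.05 against 4.0 FPKM, and NDRG1, another, at 23.1 against 23.4 FPKM, so neither differed in normoxia by size. VEGFA was at 12.2 against 22.7 FPKM.

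Many cytokine and NF-kB target genes were higher on Matrigel, with a median of 0.45 over 22 members in normoxia and 1.05 in hypoxia. In normoxia 4 were at least 2-fold higher and 1 lower, and limma called 13 higher and 2 lower. CXCL5, a neutrophil-attracting chemokine, was at 353 FPKM in 3D normoxia, 132 in 2D normoxia, 376 in 3D hypoxia and 47.1 in 2D hypoxia. CXCL8, interleukin 8, was at 13.3 FPKM in 3D normoxia, 4.5 in 2D normoxia, 57 in 3D hypoxia and 7.28 in 2D hypoxia, and NFKBIA, the inhibitor that NF-kB induces, at 94.8 against 46.8 FPKM. Both chemokines were higher in the 3D library of each pair. IL11, a cytokine of the interleukin 6 family, fell and was at 0.389 FPKM in 3D normoxia, 6.83 in 2D normoxia, 0.70 in 3D hypoxia and 12.8 in 2D hypoxia. IL6 was listed at 0 in both normoxic libraries.

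Of 19 interferon-stimulated genes, 12 passed the filter and 1, OAS1, was at least 2-fold higher, with a median of 0.27. The share past 2-fold was near that over all genes (4.11%). Limma called 3 higher and 2 lower, near the shares over all genes too (13.6% and 14.9%). OAS1, a sensor of double-stranded RNA, was at 55.3 FPKM in 3D normoxia, 26.2 in 2D normoxia, 20.6 in 3D hypoxia and 9.05 in 2D hypoxia. Of 18 antigen presentation genes, 1 was at least 2-fold higher, again near the share of all genes past 2-fold. The median was 0.10 (0.01 after rescaling to a common sum), and limma called 5 higher and 2 lower. HLA-DMB and HLA-DMA, which load peptide onto class II molecules, rose. HLA-DMB was at 144 FPKM in 3D normoxia, 50.4 in 2D normoxia, 53.2 in 3D hypoxia and 16.6 in 2D hypoxia. The class II regulator CIITA and HLA-DRA were listed at 0 in 3D normoxia. B2M, the light chain of class I, was at 426 against 230.3 FPKM, and HLA-C, a class I gene whose reads can be shared with its paralogs, had a ratio of -0.07.

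Most ATF4 target and endoplasmic reticulum chaperone genes had ratios below 0, 14 of 17 and 13 of 18. Over all genes it was 6662 of 12577. Of 17 ATF4 target genes, which serve amino acid supply, 2 were at least 2-fold lower, the median was -0.37, and limma called 8 lower. SLC7A5 and SLC3A2, the subunits of a leucine transporter, fell. SLC7A5 was at 162 FPKM in 3D normoxia, 519 in 2D normoxia, 214 in 3D hypoxia and 588 in 2D hypoxia, and SLC3A2 at 224 FPKM in 3D normoxia, 621 in 2D normoxia, 216 in 3D hypoxia and 584 in 2D hypoxia. Their dish levels were close at both oxygen levels and above the Matrigel level of the same oxygen. ASNS, asparagine synthetase, stood at 21.6 against 41.8 FPKM. Among 18 endoplasmic reticulum chaperone genes none reached 2-fold, the median was -0.34, and limma called 3 higher and 6 lower. HSPA5, the chaperone BiP, was at 179.7 against 305 FPKM and HSP90B1 at 467 against 791 FPKM, while XBP1, a transcription factor of the unfolded protein response, rose, at 182 FPKM in 3D normoxia, 100.4 in 2D normoxia, 115 in 3D hypoxia and 36.6 in 2D hypoxia. GANAB, a glucosidase that trims glycans there and is named among the abundant genes, fell, at 136 against 266 FPKM.

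Of 22 p53 target genes none reached 2-fold. Their median was 0.29 in normoxia (0.13 after rescaling to a common sum) and -0.10 in hypoxia, and limma called 5 higher and 2 lower. CCNG1, cyclin G1, was at 48.1 FPKM in 3D normoxia, 24 in 2D normoxia, 37.5 in 3D hypoxia and 22.1 in 2D hypoxia. CDKN1A, the inhibitor p21, stood at 40.1 against 28.8 FPKM in normoxia and 14 against 19.2 FPKM in hypoxia. ZMAT3, an RNA-binding target, was at 3.42 against 1.65 FPKM and was not called (limma adjusted p 0.13). Of 26 lysosomal genes, 1, NPC1, was at least 2-fold lower, near the share of all genes past 2-fold (4.11%). The median was -0.18, and limma called 1 higher and 6 lower. NPC1, which exports cholesterol from lysosomes, was at 9.51 FPKM in 3D normoxia, 32.9 in 2D normoxia, 15.8 in 3D hypoxia and 27 in 2D hypoxia. PSAP, the precursor of the saposins, stood at 706 against 1120.2 FPKM.

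The hypoxic pair gave 469 genes (3.73%) at least 2-fold higher on Matrigel and 344 (2.74%) lower. Of the 236 genes higher in normoxia, 161 (68.2%) were at least 2-fold higher in hypoxia too, and these made up 34.3% of the higher genes there. In all, 226 of the 236 (95.8%) had a ratio above 0 in hypoxia, against 47.1% of the 12577 genes. Of the 281 lower genes, 152 (54.1%) were at least 2-fold lower in hypoxia, or 44.2% of the lower genes there, and 272 (96.8%) were below 0, against 52.9% of all. Across genes, which are not independent, the ratios of the pairs had a Pearson correlation of 0.74. The pairs share no library, but both 3D libraries were the shallower of their pair. The pairs differed by 2-fold or more in opposite directions in 5 genes, given in the closing section.

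Genes differed in how much the pairs agreed. TSPAN8, TESC, MYH9 and SLC3A2 had nearly the same ratio in each, -1.40 and -1.46 for MYH9 and -1.47 and -1.43 for SLC3A2. MUC5B had 1.56 in normoxia and 3.64 in hypoxia, TAGLN -2.17 and -4.55, and COL1A1 -0.84 and -3.13. The reverse order of size was seen in ADM, with -1.56 and -0.18. These differences between the pairs were not tested.

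**Figure D4:**
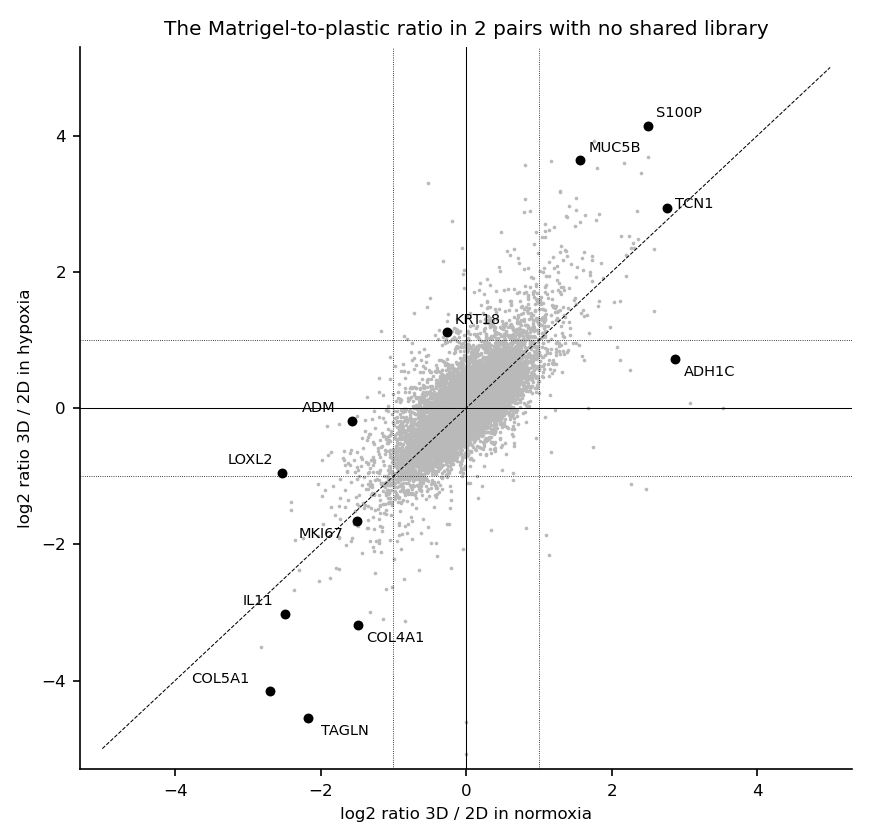
Each point is a gene, with its log2 ratio of FPKM + 1, 3D over 2D, in normoxia (x axis) and in hypoxia (y axis); dotted lines mark 2-fold, the dashed line equal ratios, and named genes are black. S100P and MUC5B lie above the dashed line and COL5A1, COL4A1 and TAGLN below it, while LOXL2 differs more in normoxia than in hypoxia.

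Transcript length moved with the ratio. With the genes ordered by transcript length and cut into 10 groups of like size, the median normoxic ratio was 0.06 in the shortest group, 0.11 in the third and -0.19 in the longest. In the hypoxic pair the corresponding values were 0.05, 0.08 and -0.21. Taking from each ratio the median of genes of like length, an alternative chosen after seeing the data, left 230 genes at least 2-fold higher and 238 lower. On that scale the median of the mitosis genes was -0.80, of the laminin and basement membrane genes -0.67, of the YAP and TAZ targets -0.41, of the collagen chains -0.08 and of the goblet cell genes 0.42. The part of length, and of RNA quality, in the results was not tested.

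**Figure D5:**
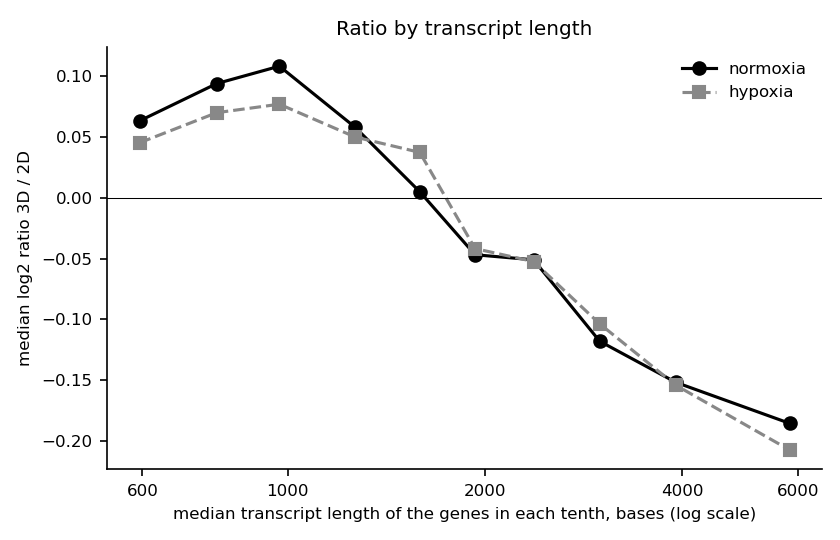
Median log2 ratio of FPKM + 1, 3D over 2D (y axis), in each of 10 groups of genes ordered by transcript length, against the group's median length in bases (x axis, log scale), for the normoxic pair (solid black) and the hypoxic pair (dashed grey). Both lines run from above 0 among short transcripts to about -0.2 among the longest.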

How the data were processed

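The labels' protocols name a miRNeasy Micro kit for RNA and a TruSeq Stranded mRNA kit for libraries. Per the submitters' processing notes, reads were handled on build hg19 with Cuffdiff 2.2.1, TopHat2 2.1.1, SAMtools 0.1.18 and Bowtie2 2.2.8. What the authors deposited is a table of gene symbols and FPKM for each library. Not given in the sources used here are the annotation, the strand setting, the library scaling and the depth.

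The 12577 genes whose mean over the 4 libraries reached 1 FPKM were kept, leaving out 86 small RNA genes, and compared as log2(FPKM + 1). The FPKM that 1 fragment is worth was read from the most frequent small product of FPKM and transcript length, and its inverse gave the depth. GENCODE 29 was used for lengths only. For the average effect of culture, limma 3.58.1 (R 4.3.3) was fitted with a trend and additive terms for culture and oxygen, with Benjamini-Hochberg adjustment. On simulated data with 12577 genes, of which 200 were changed, 98.8% of the 2-fold and 100% of the 4-fold changes were recovered, with 38.5 false calls on average. The simulated noise was independent and drawn from the variances of the fit itself, with the same change at both oxygen levels. High recovery was thus built in, and the simulation cannot speak to depth, scaling, length or differences between the pairs. Other steps used Python 3.11.15, pandas 2.3.3, numpy 2.4.6 and matplotlib 3.10.9.

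The rule for named genes took the 15 highest and 15 lowest ratios among genes of at least 5 FPKM in a normoxic library, without small RNA, LOC, LINC, RNVU and readthrough symbols. It added, per list, at most 4 members of largest ratio among those with 1 FPKM or more, the 6 highest and 6 lowest among genes of at least 100 FPKM in both libraries, and cell type markers. The 36 lists held 734 entries, and all were found. The genes compared, the lists and the rule were chosen with earlier results of these data known. Alternatives were another scaling, pseudocount or filter and limma without trend. Some genes that meet the rule are not reported here.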

Additional observations from a re-analysis of the deposited data

Results flagged for a closer look

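Of the 12577 genes, 5 were at least 2-fold different in opposite directions in the normoxic and the hypoxic pair. The difference between the pairs was not tested, and each value rests on 1 library per group. NARR had a log2 ratio of 2.47 in normoxia and -1.19 in hypoxia, with 4.63 FPKM in 3D normoxia, 0.0132 in 2D normoxia, 0 in 3D hypoxia and 1.28 in 2D hypoxia. CELSR3-AS1, an antisense RNA, had ratios of 2.26 and -1.11 and was listed at 0 in 2D normoxia and in 3D hypoxia. BLOC1S5-TXNDC5, a readthrough symbol, had ratios of 1.14 and -2.16 and was listed at 0 in the same libraries. TRIM6-TRIM34, another readthrough symbol, had ratios of 1.09 and -1.86. HIST1H4E, a histone gene, had ratios of -1.17 and 1.13, with 0.469, 2.30, 2.45 and 0.572 FPKM in 3D normoxia, 2D normoxia, 3D hypoxia and 2D hypoxia. NARR and the readthrough and antisense symbols share sequence with, or overlap, other genes, so their FPKM values are uncertain.

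Among the gene lists, the median ratio of the cholesterol genes was -0.19 in normoxia and 0.28 in hypoxia, and that of the fatty acid synthesis genes -0.49 and 0.16. These differences between the pairs were not tested either.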

How the results depend on the processing

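The main counts were 236 genes at least 2-fold higher and 281 lower on Matrigel in normoxia. Rescaling every library to a sum of 1000000 gave 669 lower genes, a pseudocount of 0.1 gave 373 higher and 500 lower, a pseudocount of 5 gave 103 higher and 92 lower, and a minimum mean of 5 FPKM gave 183 lower. The counts stayed within 1.5 times under the other alternatives run. For limma, 1713 genes were called higher and 1878 lower. Rescaling gave 948 and 3638. No filter gave 0 and 0, with 4626 of 24008 genes at an unadjusted p under 0.05. The prior degrees of freedom, the weight given to the variance of other genes, were 6.69 in the main fit. With no filter they were 0.721, and each fit had 1 residual degree of freedom. The cause of the loss of calls was not tested. Signs turned for 5 list medians near 0. After rescaling, water and ion transport stood at -0.0155 and the cytochrome P450 list at -0.0052. Centring on the median of all genes gave 0.0138 for complement and liver-type genes, 0.0238 for HIF targets and 0.0122 for endothelial markers. A minimum mean of 5 FPKM gave 0.0978 for complement and liver-type genes and 0.0143 for HIF targets. Less the median of genes of like length, complement and liver-type genes stood at 0.0566 and endothelial markers at 0.12. Many list medians moved by more than 1.5 times, turned signs included. That was so for 21 of 36 lists after rescaling, 18 of 36 with a pseudocount of 5, 11 of 36 with a pseudocount of 0.1, 6 of 36 after centring and 9 of 36 less the median of genes of like length. A minimum mean of 5 FPKM, which drops low members, moved 14 of 34, and leaving out genes listed at 0 moved 10 of 35. With that minimum the collagen chains went from -0.14 to -0.96, secreted defence proteins from 0.18 to 2.17 and goblet cell genes from 0.46 to 1.18. Of 168 named genes, 6 turned the sign of their ratio, CD14 and 5 fibroblast or endothelial markers, all with a main ratio of at most 0.088 in size. CD14 went from 0.09 to -0.10 after rescaling. Leaving out a replicate was not possible with 1 library per group. The labels give no replicate numbers, so no fit with a replicate block was made; the oxygen term in limma sets each 3D library against the 2D library of the same oxygen. Depth limits low genes, since 1 FPKM on a 2 kb transcript was 23.4 fragments in 3D normoxia. Nothing here measures variation between cultures.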

Other observations

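Some kept genes were listed at 0 in the libraries of 1 culture, so no fold is given for them. MSMB, a secreted protein of prostate and mucosal glands, was at 3.22 FPKM in 3D normoxia and 0.853 in 3D hypoxia and was listed at 0 in both 2D libraries. NPPB, the precursor of brain natriuretic peptide, was at 0.155 FPKM in 2D normoxia and 4.09 in 2D hypoxia and was listed at 0 in both 3D libraries.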
